A study of Mus musculus with 10 samples.

Results

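Insulin-like growth factors are secreted ligands whose supply to cells is set by a family of binding proteins, and 10 genes of this system were followed in cultured fetal mouse testes. They were taken from the deposited table by gene symbol, and each symbol matched 1 of the table's 24470 gene entries. The ligands were Igf1 and Igf2, the receptors Igf1r and Insr, and the binding proteins Igfbp2, Igfbp3, Igfbp4, Igfbp5, Igfbp6 and Igfbp7. All 10 passed the filter on low counts, which left 13941 genes to test.

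Both ligands bind the IGF1 receptor, a tyrosine kinase that signals through adaptor proteins to PI3K and AKT, and the insulin receptor is its closest relative. The binding proteins hold the ligands outside the cell, prolong their life and keep them from the receptor until proteases release them. Male mice that lack the insulin receptor, the IGF1 receptor and their relative Insrr develop ovaries in place of testes, so the family is known for a role in sex determination as well as in growth.

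Male gonads with the mesonephros attached were taken from 5 C57BL/6 mouse embryos at E12.5. The gonads of a pair were kept in culture for 48 h, 1 in the presence of GPI at 75 µM and its partner in the vehicle, DMSO. GPI inhibits glycogen phosphorylase, which frees glucose units from glycogen. The mesonephros was then dissected away and RNA of the whole gonad, with all its cell types, was sequenced as 1 library per gonad. This gave 5 vehicle-treated and 5 GPI-treated libraries, paired by mouse (M1 to M5), so that a comparison of each pair asks how the block of glycogen breakdown changes the RNA of the testis. Explants in a dish have no blood flow, which limits them as a model of the testis in the embryo.

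Libraries held between 10203679 and 15635322 counts. Normalized counts are counts divided by the library's effective size after TMM scaling and multiplied by the mean of that size over the 10 libraries. Sertoli cell genes were detected in each library. Sox9, the transcription factor that directs Sertoli cell fate, had between 881 and 2390 counts, and the Sertoli cell marker Amh had between 42 and 275. There was no other tissue to compare with, so these counts alone do not establish the tissue label. The GPI-treated gonad of mouse M1 stood further from the other GPI-treated gonads (chi-square per degree of freedom from 21.7 to 27.8) than those did from each other (7.48 to 11). Values without mouse M1 are given below for the IGF genes and named pathway genes whose call changed with it.

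Of the 10 genes, 7 were lower in GPI-treated testes and 0 were higher. Calls rest on the quasi-likelihood test of edgeR with the mouse in the design, at a threshold of 0.05 on p-values adjusted by Benjamini and Hochberg's method over all genes tested. Over all genes tested, 11.9% were lower and 11.1% were higher (1654 and 1544 genes), a split that was less even with scaling by total counts only (1972 and 1238) and without mouse M3 (1347 and 969). The genes that fell were the ligand Igf2, the receptor Igf1r and the binding proteins Igfbp2, Igfbp3, Igfbp4, Igfbp5 and Igfbp7. Igf1, Insr and Igfbp6 did not pass the threshold. At an unadjusted p under 0.05, 8 of the 10 differed, all of them lower with GPI, as 4741 of all 13941 genes tested differed in either direction, and DESeq2 and limma-voom called 0 higher as well. Without mouse M1, 8 were lower and 1, Igf1, was higher. The median log2 fold change of GPI over vehicle was -0.51 over the 10 genes, -0.84 over the 6 binding proteins and 0.02 over all genes tested. In 4 of the 10, Igfbp3, Igfbp4, Igfbp5 and Igfbp6, each GPI-treated library lay below each vehicle-treated library, as it did in 9.05% of all genes tested. Since RNA came from whole gonads, fewer cells of a type and less RNA per cell cannot be told apart in any of these values.

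**Figure D1:**
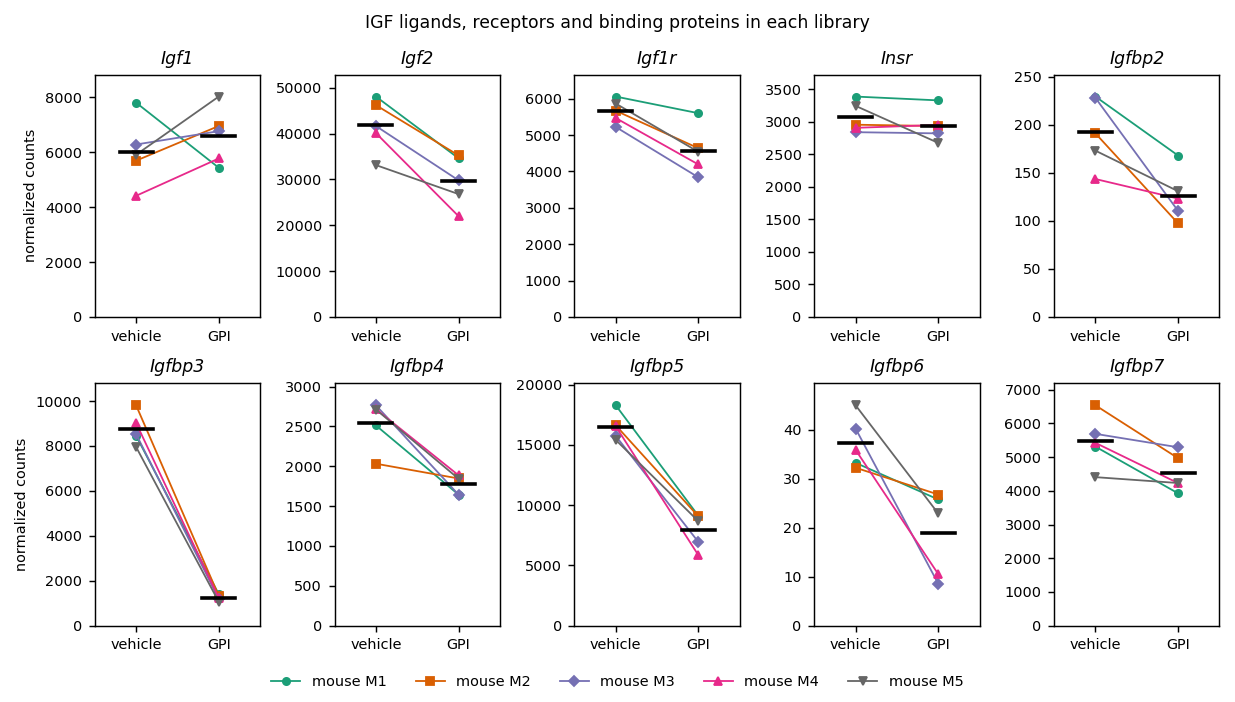
Normalized counts (vertical axis, from 0) of each of the 10 genes with vehicle and with GPI, 1 line per mouse and a black bar at the mean of 5 libraries. Igfbp3 falls from between 7957 and 9811 to between 1062 and 1403.5, while Igf1 is lower with GPI in mouse M1 and higher in the 4 others.

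Igf2, the main fetal growth factor of the pair and an imprinted gene expressed from the paternal allele, lies on chromosome 7 from 142650768 to 142666816 (mm10, minus strand; Entrez Gene 16002). With vehicle its normalized counts were 48063, 46191, 41636, 40095 and 33118 in mice M1 to M5, and with GPI they were 34599, 35227, 29788, 21964 and 26790. Each mouse had less Igf2 with GPI than with vehicle, by the most in M4, and the ranges overlapped because the vehicle-treated gonad of M5 was low. The mean went from 41821 ± 5848 (SD, n = 5) to 29674 ± 5542 (SD, n = 5), a log2 fold change of -0.50 (SE, the standard error, 0.08, edgeR adjusted p = 0.000348). Reads were counted without regard to strand, and the span of Igf2 overlaps that of Igf2os on the other strand. Reads of any shared exons cannot be told apart, and how much exon these genes share was not examined. Igf2os had 1433 counts over all libraries against 354278 for Igf2.

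Igf1, the ligand best known as the mediator of growth hormone after birth, lies on chromosome 10 from 87858265 to 87937047 (plus strand; Entrez Gene 16000). Its normalized counts were 7812, 5697, 6286, 4416 and 5914 with vehicle and 5439, 6961, 6772, 5777 and 8034 with GPI. The 4 mice M2 to M5 had more Igf1 with GPI and mouse M1 had less, and the ranges of the groups overlapped. The log2 fold change was 0.14 (SE 0.11, edgeR adjusted p = 0.424), with a 95% confidence interval from -0.10 to 0.39, which spans 0. Without mouse M1 it was 0.29 and passed the threshold (adjusted p = 0.014, edgeR), against 0.07 to 0.14 under the 11 other alternatives with adjusted p from 0.372 to 0.766.

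Levels of different genes were compared as normalized counts per kilobase of the longest transcript in GENCODE, while the reads had been counted on RefSeq models, so orders, shares and ratios below depend on that choice of length. On that scale Igf2 stood at 8857 ± 1238 (SD, n = 5) and Igf1 at 854 ± 173 (SD, n = 5) with vehicle. Igf2 took 90.2%, 92.4%, 90.8%, 93.1% and 89.3% of the ligands' sum in the vehicle-treated gonads of mice M1 to M5 and 90.5%, 88.3%, 86.8%, 85.0% and 83.3% in the GPI-treated gonads. Its share was lower with GPI in mice M2 to M5 and higher in M1, and it remained the larger part of ligand RNA in each of the 10 libraries.

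Igf1r, the receptor that carries the growth signal of both ligands, lies on chromosome 7 from 67952257 to 68233667 (plus strand; Entrez Gene 16001). It had 6058, 5669, 5221.5, 5467.5 and 5866 normalized counts with vehicle and 5601, 4637, 3837, 4190.5 and 4537 with GPI. All 5 mice had less with GPI, M1 by the least, and the GPI-treated gonad of M1 lay within the vehicle range. The log2 fold change was -0.32 (SE 0.07, edgeR adjusted p = 0.00354).

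Insr, the insulin receptor, which also binds Igf2 in its fetal isoform, lies on chromosome 8 from 3150922 to 3279617 (minus strand; Entrez Gene 16337). Its normalized counts were 3387, 2955, 2839.7, 2907 and 3244 with vehicle and 3329, 2934, 2821, 2951 and 2675 with GPI. In mice M1 to M4 both gonads had nearly the same level, and in M5 the GPI-treated gonad was lower. The log2 fold change was -0.06 (SE 0.07, edgeR adjusted p = 0.6) with a 95% confidence interval from -0.21 to 0.09, and the value was -0.0052 without mouse M5 (adjusted p = 0.974) and -0.11 with scaling by total counts only (0.306). Whether the fold changes of Igf1r and Insr differ from each other was not tested. Per kilobase, Igf1r went from 496 ± 28.7 to 399.7 ± 58 and Insr from 328 ± 25.3 to 314 ± 25.9 (SD, n = 5 each), and Igf1r was the more abundant receptor in each library.

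Igfbp3, in blood the chief carrier of both ligands, had the largest change of the 10 genes. It lies on chromosome 11 from 7206086 to 7213923 (minus strand; Entrez Gene 16009), next to Igfbp1, which covers 7197787 to 7202546 on the plus strand. With vehicle it had 8454, 9811, 8529, 9022.5 and 7957 normalized counts, and with GPI 1403.5, 1329.6, 1190.5, 1233 and 1062. The lowest vehicle-treated gonad was thus far above the highest GPI-treated gonad. The mean went from 8755 ± 701 (SD, n = 5) to 1244 ± 131 (SD, n = 5), which was 7.05-fold lower (log2 fold change -2.82, SE 0.07, edgeR adjusted p = 4.33e-11). The log2 ratio in single mice ran from -2.90 to -2.59, the smallest spread of the binding proteins (SD 0.13), at a depth of 49290 counts over the 10 libraries. By p-value Igfbp3 ranked 2 among all 13941 genes tested, and 158 genes had a lower log2 fold change.

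Igfbp5, the most conserved of the binding proteins, which also attaches to extracellular matrix, lies on chromosome 1 from 72858065 to 72874865 (minus strand; Entrez Gene 16011). It had 18276, 16618, 15735, 16531 and 15404 normalized counts with vehicle and 9106, 9061, 6937, 5839 and 8663.5 with GPI. The groups did not overlap, and M4 had the lowest GPI-treated gonad. The level was 2.11-fold lower with GPI (log2 fold change -1.08, SE 0.09, edgeR adjusted p = 1.61e-06).

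Igfbp4, a soluble binding protein that the protease Pappa cleaves, lies on chromosome 11 from 99041260 to 99052646 (plus strand; Entrez Gene 16010). It had 2512.5, 2032, 2765, 2716 and 2712 normalized counts with vehicle and 1644, 1847, 1643, 1886 and 1844 with GPI. The vehicle-treated gonad of M2 was the lowest of its group and still above all 5 GPI-treated gonads. The log2 fold change was -0.52 (SE 0.09, edgeR adjusted p = 0.000571).

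Igfbp2, the neighbour of Igfbp5 on chromosome 1 (72824480 to 72852474, plus strand; Entrez Gene 16008), had 229, 191, 228, 143 and 173 normalized counts with vehicle and 168, 97.3, 110.3, 123 and 131 with GPI. It was lower with GPI in 5 of 5 mice although the groups overlapped, since the vehicle-treated gonad of M4 lay below the GPI-treated gonad of M1. The log2 fold change was -0.62 (SE 0.16, edgeR adjusted p = 0.012), and without mouse M3 it was -0.53 and did not pass the threshold (adjusted p = 0.0628, within a range of 0.0043 to 0.0628 over 12 alternatives, edgeR apart from 2 of them).

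Igfbp7, a distant relative that binds the ligands only weakly, lies on chromosome 5 from 77349240 to 77408045 (minus strand; Entrez Gene 29817). It had 5310.6, 6536, 5689, 5422 and 4405 normalized counts with vehicle and 3925, 4967, 5292, 4228 and 4231 with GPI. All 5 mice had less with GPI, M3 and M5 by little, and the groups overlapped. The log2 fold change of -0.27 (SE 0.07, edgeR adjusted p = 0.0173) was the smallest of the called binding proteins. It did not pass without the replicate block, which takes account of the mouse (-0.27, adjusted p = 0.0674), or without mouse M4 (-0.25, adjusted p = 0.0775). Over the 12 alternatives its adjusted p ran from 0.00357 to 0.0775. The span of Igfbp7 overlaps that of Polr2b on the other strand, which had 15899 counts over all libraries against 49694 for Igfbp7. Whether their exons overlap, and so whether any reads are shared, was not examined.

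Igfbp6, which prefers Igf2 over Igf1, was the least abundant of the 10 (chromosome 15 from 102144186 to 102149512, plus strand; Entrez Gene 16012). It had 33.2, 32.2, 40.2, 35.9 and 44.95 normalized counts with vehicle and 25.7, 26.8, 8.56, 10.5 and 22.9 with GPI. Each GPI-treated gonad lay below each vehicle-treated gonad, M3 and M4 by the most. It had 284 counts over the 10 libraries, and its log2 fold change of -1.06 (SE 0.37) missed the threshold (adjusted p = 0.0534, edgeR). It passed in 5 of the 11 alternatives that gave a value, among them the fit without the replicate block (adjusted p = 0.0476) and the fits without mouse M1 (0.041) or M2 (0.0429), in a range from 0.0405 to 0.192.

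**Figure D2:**
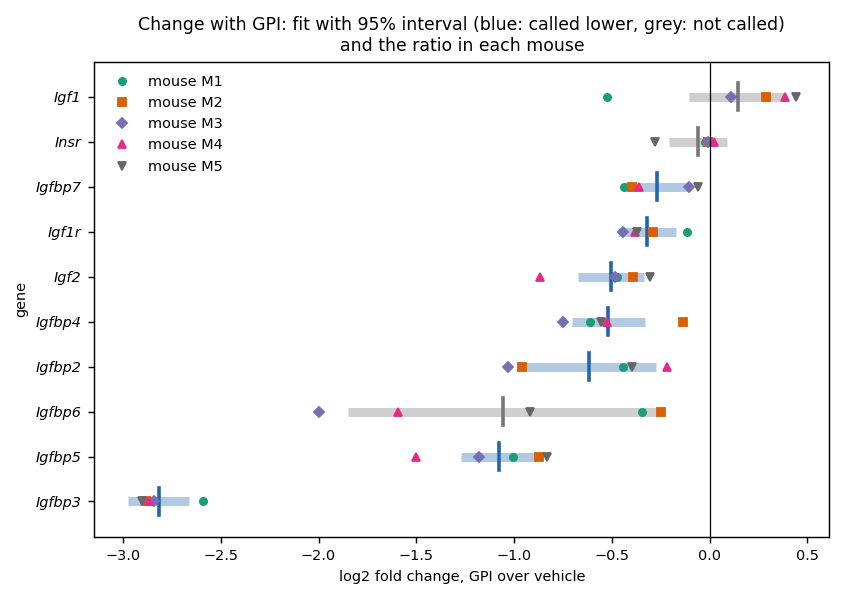
Log2 fold change of GPI over vehicle for the 10 genes: vertical marks are edgeR fits, shaded bars their 95% confidence intervals, and points the ratio in each of the 5 mice. Igfbp3, at -2.82, stands apart from the rest. The 8 genes from Igfbp7 downwards are to the left of 0 in 5 of 5 mice. Over all 13941 genes tested, 2113 were lower with GPI in 5 of 5 mice.

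The binding proteins Igfbp3, Igfbp5 and Igfbp4 both passed the threshold and showed no overlap between the groups, and the stretch before the start site of each is shown because these members fell together. The 250 bases end just before the RefSeq start site and come from the GRCm38.p6 build (chr11:7213924-7214173 on the minus strand for Igfbp3, chr1:72874866-72875115 on the minus strand for Igfbp5 and chr11:99040994-99041243 on the plus strand for Igfbp4, whose RefSeq start lies 5′ of the start in the count table). They are written 5′ to 3′, with TATA box letters and close variants of them in capitals.
Igfbp3: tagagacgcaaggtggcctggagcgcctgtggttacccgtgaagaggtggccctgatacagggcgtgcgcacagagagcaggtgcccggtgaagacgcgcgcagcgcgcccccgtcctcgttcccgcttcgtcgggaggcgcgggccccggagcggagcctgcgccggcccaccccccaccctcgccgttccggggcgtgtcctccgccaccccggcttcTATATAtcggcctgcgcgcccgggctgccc
Igfbp5: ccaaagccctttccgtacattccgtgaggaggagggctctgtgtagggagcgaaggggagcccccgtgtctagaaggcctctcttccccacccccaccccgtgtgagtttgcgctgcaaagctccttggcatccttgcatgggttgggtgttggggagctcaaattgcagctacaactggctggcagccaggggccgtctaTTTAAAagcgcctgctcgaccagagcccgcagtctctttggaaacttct
Igfbp4: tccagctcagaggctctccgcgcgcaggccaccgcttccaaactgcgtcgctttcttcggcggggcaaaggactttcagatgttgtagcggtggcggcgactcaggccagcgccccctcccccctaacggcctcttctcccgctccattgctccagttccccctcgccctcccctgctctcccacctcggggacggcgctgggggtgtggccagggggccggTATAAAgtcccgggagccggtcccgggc

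In these windows TATAAA began 28 bases before the start of Igfbp4, TATATA 30 bases before that of Igfbp3, and TTTAAA 49 bases before that of Igfbp5. Of all 32851 RefSeq promoter windows of this length, 12.4% held TATAAA, 5.25% held TATATA and 12.1% held TTTAAA on either strand; the last pair was searched after the sequences had been read. The GC box GGGCGG, the NR5A1 motif AAGGTCA, the forkhead core GTAAACA and the hypoxia response core ACGTG were found in none of these 3 windows on either strand, and in 32.7%, 4.08%, 3.17% and 16.6% of all windows. Bases G and C made up 73.2% of the Igfbp3 window, 58.8% of that of Igfbp5 and 69.2% of that of Igfbp4, against a median of 52.4% over all windows. Promoter windows were listed for 9 of the 10 genes, 13 windows in all, and Insr was not among them. The GC box was in 5 of the 13, including 4 copies in the window of Igfbp7 and 2 in that of Igf1r, the hypoxia response core in 3 (of Igfbp2, Igfbp7 and Igf2), the NR5A1 motif in 1 (of Igf1r) and the forkhead core in 0. TATAAA was in 2, with that of Igfbp6 lying 148 bases before the start.

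Per kilobase of transcript, Igfbp3 gave 29.5%, 31.2%, 29.8%, 31.5% and 31.6% of the summed level of the 6 binding proteins in the vehicle-treated gonads of mice M1 to M5 and 9.75%, 8.10%, 7.48%, 9.09% and 7.30% in the GPI-treated gonads. Its share with GPI was thus below each vehicle value in all 5 mice. The share of Igfbp7 was 38.6% ± 2.57 with vehicle and 60.9% ± 4.52 with GPI (SD, n = 5 each). Its own mean level per kilobase was lower with GPI, 3774 against 4560, and its share was higher because the sum fell by more. The share of Igfbp5 was 23.4% ± 1.79 with vehicle and 21.3% ± 3.72 with GPI, a difference within the spread between mice, since its level was lower by about as much as the sum. Igfbp4 went from 5.71% ± 1.01 to 7.53% ± 0.882, while Igfbp2 reached at most 2.16% and Igfbp6 at most 0.389% in a library.

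Among the 10 genes the order of levels per kilobase with vehicle was Igf2, Igfbp7, Igfbp3, Igfbp5, Igf1, Igfbp4, Igf1r, Insr, Igfbp2 and Igfbp6. Igfbp7 (4560 ± 638) and Igfbp3 (3616 ± 289.5) overlapped across mice, as did Igf1 (854 ± 173) and Igfbp4 (665 ± 79.4), and the lowest Igfbp4 value, 530.45, was just under the highest Igf1r value, 530.99. With GPI, Igfbp3 (514 ± 54.2) had moved behind Igfbp5 (1319 ± 244) and Igf1 (935 ± 146) and no longer differed from Igfbp4 (463 ± 31.1) beyond their spread (SD, n = 5 each). With the length of all merged exons in place of the longest transcript, Igfbp3 and Igfbp5 were level with vehicle, at 2797 ± 224 and 2749 ± 185, and the share of Igfbp3 in the binding proteins was 25.9% with vehicle and 6.71% with GPI.

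The summed ligands divided by the summed binding proteins, both per kilobase, gave 0.955, 0.816, 0.822, 0.7695 and 0.755 with vehicle and 1.36, 1.246, 1.105, 0.977 and 1.13 with GPI. This ratio of RNA levels was higher with GPI in each mouse, and the lowest GPI value, in M4, was just above the highest vehicle value, in M1. With merged exon lengths it was again higher with GPI in each mouse, but the groups overlapped, since the GPI-treated gonad of M4 (0.824) lay below the vehicle-treated gonad of M1 (0.846). It is a description of transcripts, weights all 6 binding proteins alike although Igfbp7 binds weakly, and was given no test.

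**Figure D3:**
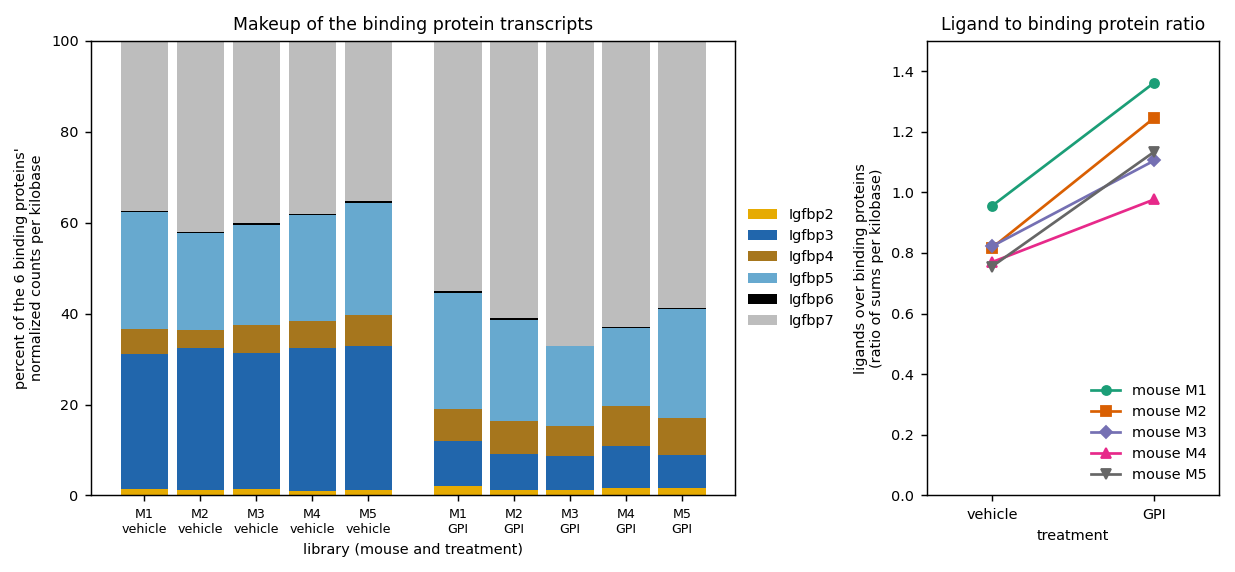
Left, share of each binding protein in their summed normalized counts per kilobase (bars from 0 to 100%), 1 bar per library. Right, ratio of summed ligands to summed binding proteins per kilobase, 1 line per mouse. The share of Igfbp3 averages 30.7% with vehicle and 8.34% with GPI, and the ratio is higher with GPI in 5 of 5 mice.

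Other genes of the pathway were read from a list of 48, of which 42 passed the filter. With GPI, 8 were higher and 8 lower, next to 11.1% and 11.9% of all genes tested, the shares to hold against the counts of its groups below. The median log2 fold change was 0.01, against 0.02 for all genes tested. Without mouse M1, 5 were higher, and without mouse M4, 3 were lower. The 6 set aside were the insulin genes Ins1 (0 counts in all 10 libraries) and Ins2 (at most 2 counts in a library), the receptor relative Insrr (at most 21), the binding proteins Igfbp1 (at most 15) and Igfbpl1 (at most 9), and the carrier subunit Igfals (at most 3). Igfbp1 had 4, 15, 1, 0 and 0 counts with vehicle and 0 in each GPI-treated library, too few to compare. Igf2r, the receptor that clears Igf2 without a growth signal, had 3049.8 ± 491 normalized counts with vehicle and 3103 ± 234 with GPI (SD, n = 5 each), a log2 fold change of 0.04 (SE 0.09, edgeR adjusted p = 0.817), and overlaps Airn on the other strand.

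Of the 5 proteases of binding proteins and their inhibitors, 3 were higher with GPI and 0 lower. Pappa, the metalloprotease that cleaves Igfbp4 and Igfbp5, rose from 1904 ± 194 to 3119 ± 230.2 normalized counts (SD, n = 5 each), a log2 fold change of 0.72 (SE 0.08, edgeR adjusted p = 1.94e-05). Stc2, a secreted inhibitor of Pappa, rose as well, by 0.76 (SE 0.19, adjusted p = 0.0114), though not past the threshold in DESeq2 (adjusted p = 0.0576, the highest of 12 alternatives whose lowest was 0.000178). Htra1, a serine protease that cleaves Igfbp5 among other substrates, rose by 0.57 (SE 0.13, adjusted p = 0.00451). Each of the 3 was higher in 5 of 5 mice with no overlap between the groups, for Stc2 only narrowly. In mouse M5, Stc2 had 740 counts with vehicle and 522 with GPI, at effective library sizes of 16171182 and 11307056. After scaling, the gonads of M5 were thus nearly level in Stc2. Of all 13941 genes tested, 2144 were higher in 5 of 5 mice. Groups did not overlap in 2247 of them, of which 1261 were lower with GPI and the rest higher. Pappa2 (0.10) and Stc1 (0.14) did not pass.

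Among 9 receptor adaptors, Grb14 and Sos1 were higher and Gab1 lower. Grb14, which binds the active insulin receptor and inhibits it, had 559 ± 131 normalized counts with vehicle and 972 ± 172 with GPI (log2 fold change 0.81, SE 0.10, edgeR adjusted p = 5.24e-05). The docking protein Gab1 had a log2 fold change of -0.31 and Sos1, the exchange factor for Ras, of 0.25. The insulin receptor substrates Irs1 (0.12), Irs2 (-0.22) and Irs4 (-0.13) did not pass.

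Downstream, 18 genes of PI3K, AKT, mTOR and FOXO gave 2 higher and 4 lower. The fall was in Pik3cb (-0.59), a catalytic subunit of PI3K, in its regulatory subunits Pik3r1 (-0.54) and Pik3r3 (-0.38) and in Rictor (-0.28), a partner of mTOR. Pik3r1 went from 3495 ± 507 to 2389 ± 217 normalized counts (SD, n = 5 each, adjusted p = 0.000406, edgeR). The regulatory subunit Pik3r2 (0.57) and the transcription factor Foxo3 (0.25) rose, so that the regulatory subunits of PI3K went in different directions. Calls of Pik3r3, at an adjusted p of 0.04995, were lost in 6 of 12 alternatives (adjusted p from 0.00816 to 0.149) and those of Foxo3 in 5 (0.021 to 0.256). Sos1 lost its call in 3 (0.00857 to 0.0684), Pik3r2 in 2 (0.00898 to 0.0629), and Gab1 (0.0046 to 0.0538) and Rictor (0.00493 to 0.0934) in the fit without mouse M4. Without mouse M1 the calls of Sos1 (0.20, adjusted p = 0.0684), Pik3r2 (0.50, 0.0582), Foxo3 (0.23, 0.112) and Pik3r3 (-0.28, 0.133) were lost. Of 3 phosphatases that act on this pathway, Inppl1, a lipid phosphatase, rose by 0.59 (SE 0.09, adjusted p = 0.000421), and Ptpn1 (-0.21) and Ptpn11 (0.14) did not pass.

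At the Igf2 locus and among proteins that bind Igf2 RNA, 3 of 6 genes were lower and 0 higher. H19, the maternally expressed noncoding RNA that shares enhancers with Igf2, lies on the same chromosome from 142575530 to 142578146. It had 36517 ± 3430 normalized counts with vehicle and 29442 ± 7395 with GPI (SD, n = 5 each). It was lower in 4 of 5 mice (log2 fold change -0.34, SE 0.09, edgeR adjusted p = 0.0183) and lost the call in 4 of 12 alternatives, without the replicate block (-0.31, adjusted p = 0.0963) and without mouse M2 (0.0669), M3 (0.0618) or M4 (0.102), in a range from 0.000767 to 0.102. Igf2os, whose reads cannot be told apart from those of Igf2 wherever their exons overlap, had a log2 fold change of -0.74 (SE 0.18, adjusted p = 0.0086). Igf2bp1, which binds Igf2 messenger RNA, had a log2 fold change of -0.36 and missed the threshold without mouse M4 (-0.31, adjusted p = 0.0592, the highest of a range from 0.00386). Igf2bp2 (-0.07), Igf2bp3 (0.01) and Plagl1 (0.01), a regulator of imprinted genes, did not pass.

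**Figure D4:**
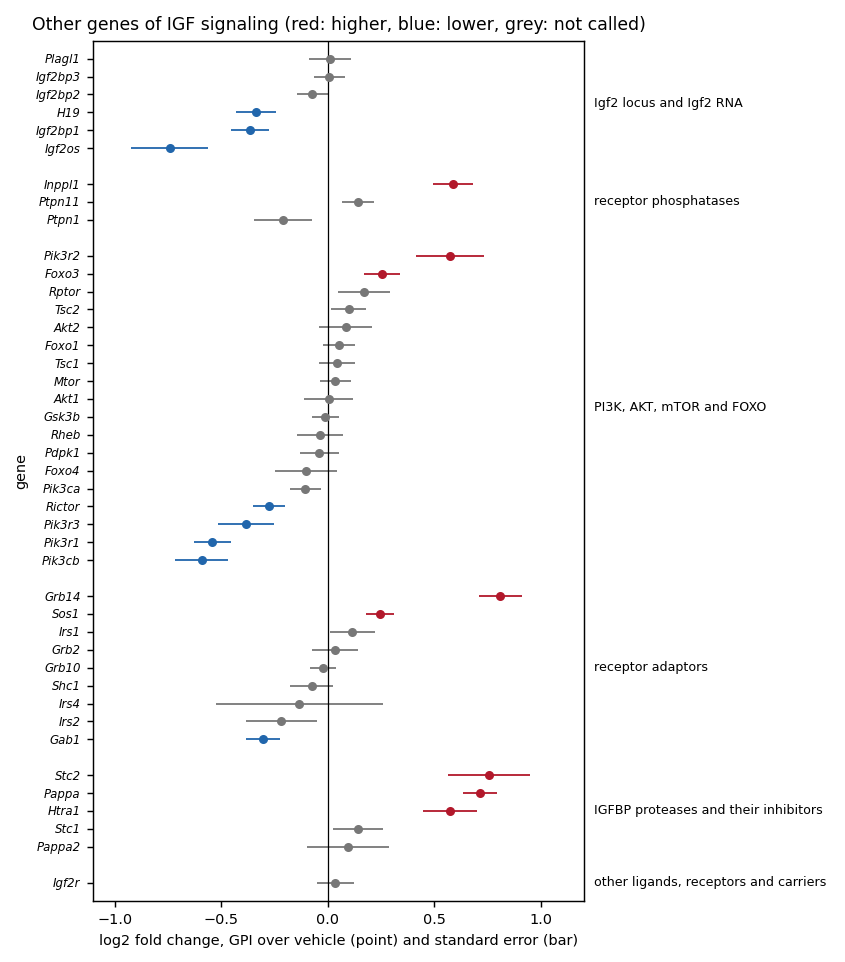
Log2 fold change of GPI over vehicle (horizontal axis; points, with bars of 1 standard error) for the 42 tested genes of the pathway list, grouped by function. Red points are the 8 higher genes, blue points the 8 lower genes, and 3 of the 5 genes of binding protein proteases and their inhibitors are red.

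Markers of the cell types of the gonad moved with GPI as well, and sums of a marker list are sums of normalized counts. The numbers of markers called in each list stand next to 11.1% higher and 11.9% lower over all genes tested. All 8 endothelial markers were lower. Their summed normalized counts were 7697, 7933, 7348, 8479 and 7529 with vehicle and 856, 1006, 696, 556 and 710.4 with GPI, with Cdh5, the cadherin of vessel walls, the most abundant with vehicle and Kdr with GPI. The sum with GPI was thus 9.81% of that with vehicle, and between 6.55% and 12.7% in single mice. Igfbp3 stood at between 13.4% and 16.6% of vehicle in single mice. The sum of the germ cell markers below stood at between 2.57% and 17.1%. Of 6 markers of perivascular and smooth muscle cells, 4 were lower, and the sums were 3357, 4414, 4109, 3779 and 3866.5 with vehicle and 2466, 2225, 2189, 1944 and 2316.5 with GPI. Acta2, the most abundant there, did not pass. The part of endothelial, perivascular, smooth muscle and germ cells in the fall of the 5 called binding proteins was not tested.

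Germ cell markers were lower in 4 of 5, with sums of 881, 1908, 1139, 1594 and 579.8 with vehicle and 128, 117, 39.0, 41.0 and 99.2 with GPI. Dazl was the most abundant of them with vehicle and Ddx4 with GPI, and Mael was at 0 in 3 of the GPI-treated libraries. Of 7 macrophage markers 6 were tested and 5 were lower. Their sums were 657, 421, 480.2, 473 and 390.1 with vehicle and 239.5, 236, 178, 147 and 139 with GPI, led by Mrc1, with C1qa and Fcgr1 at 0 in some GPI-treated libraries. All 4 erythroid markers were lower, with sums of 1482, 1822, 3445, 3138 and 2693 with vehicle and 1339, 777, 742, 814 and 1865 with GPI. Hbb-y led that list.

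Most Sertoli and fetal Leydig cell markers were higher with GPI. Of 6 Sertoli cell markers 5 were higher and 0 lower, with sums of 1794, 2635, 1860.4, 2272 and 2631 with vehicle and 2484, 3718, 3672, 4289 and 3528 with GPI. Sox9 led the list, and the vehicle and GPI sums overlapped because of the low GPI-treated gonad of M1. All 4 tested fetal Leydig cell markers were higher, with sums of 1280, 2700.4, 3979.8, 1991 and 5303 with vehicle and 9634, 10119, 15749, 18089 and 12928 with GPI. Hsd3b1 was the most abundant with vehicle and Cyp11a1 with GPI, while Insl3, a defining hormone gene of these cells, had at most 7 counts in a library and 0 in 4 of them.

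The interstitial progenitors, which make up much of the mesenchyme, had 1 marker higher and 3 lower of 6, and their sum hardly moved, from between 14371 and 16904 with vehicle to between 14464 and 17436 with GPI, led by Pdgfra. Of 4 tested markers of the coelomic epithelium 1 was higher, with sums of 659 to 894 and 788 to 1062, led by Upk3b, with Msln at 0 in 6 libraries. Among 4 pre-granulosa markers Wnt4, the most abundant, was lower, with sums of 1339 to 1748 and 810.1 to 1349.8. Over all genes tested 11.1% were higher and 11.9% lower, so 1 call among 4 markers says little about such a list. In the tubules and duct of the mesonephros, Pax8 alone was tested and did not pass. The sums of that list were 541, 112, 267, 132 and 58.7 with vehicle and 177, 224, 114, 109 and 94.8 with GPI. The vehicle-treated gonad of M1 had the most, with Pax2 and Cdh16 at 0 in some other libraries.

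**Figure D5:**
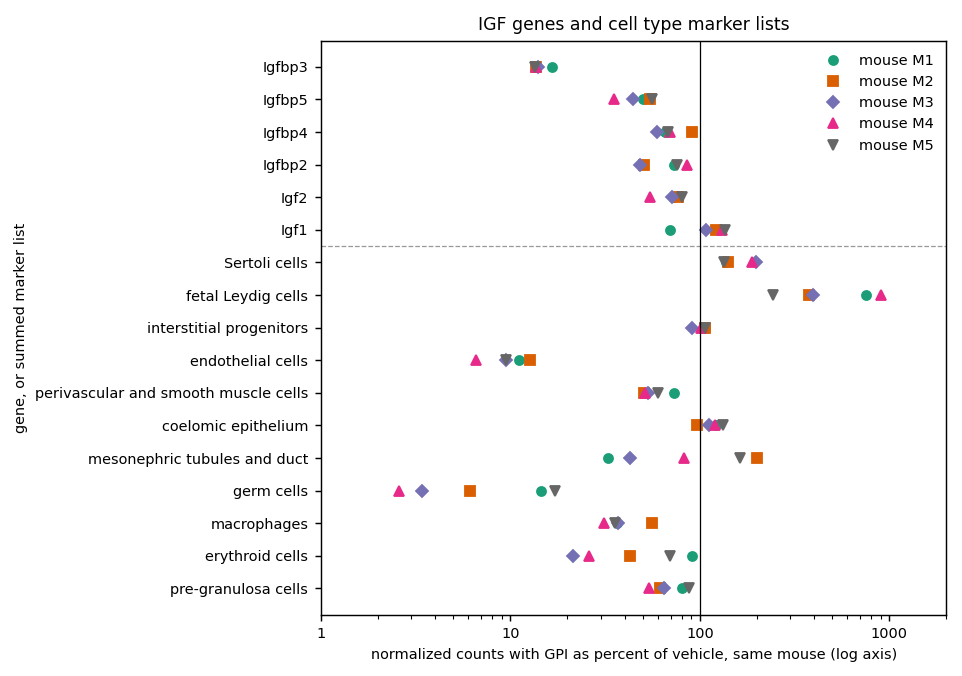
Normalized counts with GPI as a percent of those with vehicle in the same mouse (log axis; 100 is no change), for 6 of the IGF genes above the dashed line and for the summed marker lists of 11 cell types below it. Endothelial sums lie between 6.55% and 12.7%, germ cell sums between 2.57% and 17.1% and Igfbp3 between 13.4% and 16.6%. Interstitial progenitor sums lie between 90.7% and 106%.

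For each member, the tested genes most like it were found by the root mean square difference, over the 10 libraries, between log2 normalized counts centred on each gene's own mean, among 11104 other genes (11105 for Igfbp6) that averaged 50 counts or more per library. A smaller difference means a closer course over the libraries. Each gene was centred over both treatments together, so genes close to a member share much of its fold change by construction. For Igfbp3 they were Prex2 (difference 0.19), Rapgef5 (0.21) and Cd38 (0.23), with log2 fold changes of -3.01, -2.63 and -2.92. Prex2 is an exchange factor for Rac, Rapgef5 an exchange factor for Rap, and Cd38 an enzyme that consumes NAD.

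For Igfbp5 the closest genes were P3h2 (0.10), a prolyl hydroxylase of collagens, Col6a3 (0.12) and Grhl1 (0.13). Igfbp4 was closest to Plscr4 (0.07), the Notch ligand Jag1 (0.09) and Amot (0.10), and Igfbp2 to Prkd2 (0.11), Errfi1 (0.14) and 4930565N06Rik (0.16). For Igfbp7 they were Ranbp1 (0.08), Clic4 (0.09) and Donson (0.09). Igfbp6 had the largest differences of the members, 0.27 for Gldn, 0.28 for Chst15 and 0.29 for Zfp69.

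Igf2 followed BC055324 (0.13), Tet1 (0.13), which oxidises methylated DNA, and the cadherin Fat4 (0.13) most closely. Igf1r followed the protocadherin Dchs1 (0.07), Mrc2 (0.08) and Fstl1 (0.08). Igf1 was closest to Zfp111 (0.12), Zfyve26 (0.13) and Tmem67 (0.13), and Insr to Rpl3 (0.06), Primpol (0.06) and Shoc2 (0.06), genes whose log2 fold changes lay between -0.13 and -0.03.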

How the data were processed

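Per the authors, STAR 2.5 aligned the read pairs to mm10 and featureCounts (Subread 1.5.0-p1) assigned them to RefSeq Curated genes, ignoring strand. The deposited raw counts of 10 libraries, for 24470 entries, were used unchanged. Depth was 10203679 to 15635322 counts per library. Reads were amplified and carry no molecular identifiers, so errors rest on the spread between libraries. With the mouse in the design, that is the spread between mice of the difference between treatments. Libraries of a treatment differed by more than sampling noise (chi-square over degrees of freedom from 6.42 to 27.8).

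Genes were filtered by filterByExpr (minimum count 10, total 15), scaled by TMM and compared by edgeR 4.0.16 (quasi-likelihood test, mouse and treatment in the design, Benjamini-Hochberg threshold 0.05), after a test on simulated data. Standard errors (SE) were obtained by dividing the size of a log2 fold change by the root of its F statistic. Ratios in single mice used a prior count of 2. Both gonads of a mouse carry the same animal label, which pairs them. Correlations of deviations from the treatment mean ran from -0.04 to 0.155 within a mouse (mean 0.06) and averaged -0.015 between mice.

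Gene lengths came from GENCODE M21, not from the RefSeq models the reads were counted on, and promoters from RefSeq (GRCm38.p6). The members and lists were chosen with earlier results of these data known. In the planned lists, 4 genes are not reported here, and counts and sums leave them out. Named by rule were the 10 members, the pathway genes called with Igf2r and H19, the marker gene with most counts over all libraries in each list, and 3 genes most like each member. Other genes were chosen after their values were seen. Alternatives were DESeq2 1.42.0 and limma-voom 3.58.1, no replicate block, scaling by size factors of DESeq2 or by totals, a filter of at least 10 counts per library or none, each mouse left out, merged exon length, and mean absolute difference as the measure of likeness. R 4.3.3, Python 3.11.15 and matplotlib 3.10.9 were used.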

Additional observations from a re-analysis of the deposited data

How the results depend on the processing

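Igf2, Igf1r, Igfbp3, Igfbp4 and Igfbp5 were called lower under all 12 alternatives, with log2 fold changes of -2.89 to -2.80 for Igfbp3 and -1.14 to -0.97 for Igfbp5. The number of members called lower, 7, was between 6 and 8. None was called higher except Igf1 without mouse M1 (0 to 1 with a mouse left out, and 0 by DESeq2 and limma-voom). Pathway genes called higher numbered 5 to 8 and called lower 3 to 8 with a mouse left out, against 8 and 8.

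All genes called numbered 3198, and 3108 without the replicate block, which takes the pairing of gonads out of the design. There Igfbp7, H19 and Pik3r3 lost their calls and Igfbp6 gained one, and no other call among the members and named pathway genes changed. Igf2r, not called in any fit, had a log2 fold change of 0.04, which was -0.015 with total counts only and ran from -0.055 (without mouse M2) to 0.081 (without M4) with a mouse left out, at -0.00016 without M3. Merged exon length moved shares of Igfbp2 and Igfbp3 in both groups, and of Igfbp5 and Igfbp7 with vehicle only, by more than the spread between mice, and another measure of likeness kept 23 of 30 closest genes. Of all values compared, 351 kept their direction and side of the threshold, moved within that spread or, for counts, stayed within 1.5 times the main count, 27 lost a call, 6 gained one, 3 changed sign and 9 moved further. Fits with a mouse left out have fewer samples, and otherwise the cause was not tested. Igfbp6, with 9 counts in 1 library, gave no value under the filter of at least 10 counts in each.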
